A study of Mus musculus with 20 samples.

Results

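The 78 genes described here encode the proteins of the mitochondrial ribosome. They were chosen by name: every gene whose mouse symbol in the GENCODE M21 annotation is Mrpl (large subunit) or Mrps (small subunit) followed by a number and at most 1 letter. They comprise 49 Mrpl and 29 Mrps genes of the 47729 genes counted in each library. RNA was measured in 20 libraries of Sca-1 positive mouse kidney cells, which the labels call mesenchymal stem cell-like and which were isolated by digestion of the kidney and magnetic sorting. Roxadustat, an inhibitor of the prolyl hydroxylases that mark hypoxia-inducible factors for breakdown, was compared with control at 3 times. Freshly isolated cells (day 0) gave 2 control and 2 roxadustat libraries, and cells cultured for 7 and for 21 days gave 4 control and 4 roxadustat libraries each. Mice received roxadustat by intraperitoneal injection for 7 days at 33 mg per kg, and cultured cells were kept in mesenchymal stem cell medium with serum, antibiotics and 20% oxygen, with roxadustat added to the treated cultures. The labels carry 1 protocol text for all libraries, and give neither strain, age nor sex. They do not say whether replicates were separate animals or cultures, so p-values measure the spread between libraries, which may be technical, nor from which mice the treated cultures were started.

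Mitochondria make 13 proteins of the respiratory chain and ATP synthase from their own genome, and they do so on a ribosome of their own. Its 12S and 16S ribosomal RNAs are transcribed from mitochondrial DNA, whereas its proteins are all encoded in the nucleus, made in the cytosol and imported. Some descend from bacterial ribosomal proteins and others were added in mitochondria. Kidney tubule epithelium is among the tissues richest in mitochondria. A few names do not match the place of the protein: the products of Mrps18a and Mrps30 sit in the large subunit, and that of Mrps36 is known as a subunit of the 2-oxoglutarate dehydrogenase complex.

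Promoters of these genes are known for sites of the nuclear respiratory factors, and 4 stretches of 300 bases are shown to place those letters beside the values that follow. The RefSeq table (build GRCm38.p6, from 250 bases before to 50 bases after the start of the gene) held 69 of the 78 genes. It had no entry for Mrps28, Mrpl38, Mrpl54, Mrpl13, Mrpl15, Mrpl19, Mrpl4, Mrps34 and Mrps35. The genes printed are Mrpl12, the single gene called at day 0, at chr11:120484387-120484686 on the plus strand; Mrpl14, with the largest rise at day 7, at chr17:45686099-45686398 on the plus strand; Mrpl52, lower at both culture days, at chr14:54426659-54426958 on the plus strand; and Mrpl50, higher at day 21, at chr4:49521034-49521333 on the minus strand. Mrpl50 and Mrpl52 were picked after their values were seen. Capitals mark a match, on either strand, to the site of NRF1 (GCGCA, then any 1 base, then GCGC) or to CCGGAAG (an ETS site, as bound by NRF-2, also called GABP).
Mrpl12: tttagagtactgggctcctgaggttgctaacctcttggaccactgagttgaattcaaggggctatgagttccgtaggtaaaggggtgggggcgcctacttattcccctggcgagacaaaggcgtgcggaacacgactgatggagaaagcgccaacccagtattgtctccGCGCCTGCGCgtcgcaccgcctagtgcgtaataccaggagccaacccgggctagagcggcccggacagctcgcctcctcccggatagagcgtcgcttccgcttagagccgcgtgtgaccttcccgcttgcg
Mrpl14: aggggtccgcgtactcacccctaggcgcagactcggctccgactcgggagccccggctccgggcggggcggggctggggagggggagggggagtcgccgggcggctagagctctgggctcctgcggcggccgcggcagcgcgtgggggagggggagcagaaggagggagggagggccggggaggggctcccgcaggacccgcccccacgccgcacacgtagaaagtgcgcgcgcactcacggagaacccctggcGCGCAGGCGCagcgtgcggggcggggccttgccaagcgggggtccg
Mrpl52: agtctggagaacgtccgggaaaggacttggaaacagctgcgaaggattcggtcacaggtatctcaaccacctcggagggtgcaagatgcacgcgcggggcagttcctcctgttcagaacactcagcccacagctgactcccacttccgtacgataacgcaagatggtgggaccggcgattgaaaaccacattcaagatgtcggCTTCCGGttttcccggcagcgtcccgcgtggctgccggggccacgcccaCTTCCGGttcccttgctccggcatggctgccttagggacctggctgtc
Mrpl50: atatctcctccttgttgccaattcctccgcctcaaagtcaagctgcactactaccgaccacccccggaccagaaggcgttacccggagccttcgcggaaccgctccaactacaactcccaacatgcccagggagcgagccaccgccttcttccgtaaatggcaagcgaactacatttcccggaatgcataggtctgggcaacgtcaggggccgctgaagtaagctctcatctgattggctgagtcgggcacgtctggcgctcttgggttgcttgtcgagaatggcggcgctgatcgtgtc
The NRF1 match lay 81 bases before the start of Mrpl12 and 5 bases after that of Mrpl14, and Mrpl52 held ETS matches 47 bases before and 3 bases after its start. Mrpl50 held neither. Among the 69 genes, 13 (18.8%) held the NRF1 letters, against 7.17% of the 17492 protein-coding genes in the table. A gene with more than 1 window was counted if any window held the letters. The ETS letters stood in 26 (37.7%, against 12.9%) and AAGATGGC, the site of YY1, in 12 (17.4%, against 3.57%). At least 1 of the 3 was found in 43 (62.3%, against 21.0%). CACGTG, the E-box read by Myc and other factors, stood in 5 (7.25%, against 8.91%), and ACGTG or GCGTG, the core of the hypoxia response element, in 46 (66.7%, against 52.3%); CACGTG contains ACGTG. Of 61 cytosolic ribosomal protein genes, 39.3% held the ETS letters, 55.7% at least 1 of the 3, and 68.9% the hypoxia core, near the shares above. The NRF1 letters stood in 8.2% of them, and the YY1 site and the E-box in 9.84% each. These shares describe letters in a window and were not tested.

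The libraries held 8502011 to 19903160 counts. Control libraries at day 21 lay in 2 close pairs (replicate 1 with 2, and 3 with 4). For each pair, counts are given in the control step to day 21, the day 21 treatment comparison and its interaction with day 7. Other counts that rest on these libraries are given for all of them together. Sca-1 itself (Ly6a) was present in every library, at 495 to 550 CPM (counts scaled to a common library total) in control and 668 to 715 CPM in roxadustat cells at day 0, at 158 to 172 and 479 to 525 CPM at day 7, and at 161 to 199 and 469 to 528 CPM at day 21. A list of 12 proximal tubule markers summed to between 23800 and 25200 CPM in the fresh libraries of both arms, to between 84.4 and 90.8 CPM in control and 249 to 260 CPM in roxadustat cells at day 7, and to between 10.1 and 15.9 CPM and 299 to 309 CPM at day 21. The labelled cell type was thus accompanied by abundant tubule RNA at day 0. Its part in the comparisons below was not tested, and fewer cells of a type cannot be told apart from less RNA per cell in bulk libraries.

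Fresh cells gave about 0.25% of their counts to the 78 genes, cultures gave a similar share at day 7, and a lower share at day 21. The share was 0.2516% ± 0.00482 (SD, n = 2) in control and 0.2526% ± 0.00156 (SD, n = 2) in roxadustat cells at day 0. At day 7 it was 0.2469% ± 0.00511 and 0.2435% ± 0.00902 (SD, n = 4 each). At day 21 it was 0.152% ± 0.0133 in control and 0.1789% ± 0.0111 in roxadustat cells (SD, n = 4 each). All 4 roxadustat libraries of day 21, at 0.16493% to 0.19195%, lay above the 4 control libraries, at 0.14015% to 0.16412%, and within control the pair of replicates 1 and 2 was the higher. After scaling by TMM, which sets the libraries on the bulk of their genes, the mean summed level at day 21 had the other order. It was 1656 ± 127 CPM in control and 1530 ± 73.1 CPM in roxadustat cells, but the libraries overlapped (1538.96 to 1779.77 and 1438.9 to 1616.07 CPM). Control replicates 3 and 4 lay within the roxadustat range. The summed levels were 3208 ± 79.7 and 3099 ± 23.6 CPM at day 0 and 2343 ± 57.4 and 2207 ± 87.2 CPM at day 7. A fall from day 0 to day 7 is therefore seen in the scaled levels and not in the share of all counts. The fall from day 7 to day 21 is seen in both. As a share of nuclear protein-coding counts, the genes also fell to day 7. That share went from 0.3129% to 0.269% in control and from 0.306% to 0.2632% in roxadustat cells, without overlap of libraries. Beside this, the RNAs of the mitochondrial genome took 13.74% of fresh control and 11.41% of fresh roxadustat counts. In culture they took 2.064% and 0.872% by day 7, and 2.224% and 1.006% by day 21; 6 of the 13 mitochondrial mRNAs, listed at or near 0 in every library, add almost nothing to these shares.

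**Figure D1:**
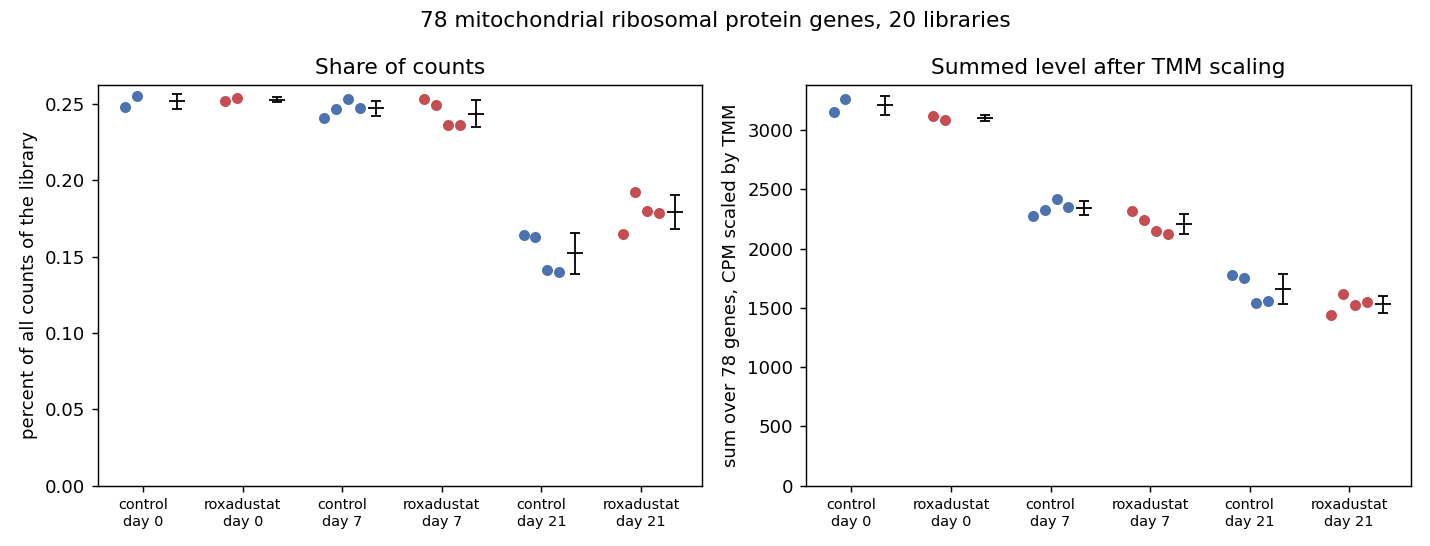
Share of all counts, in percent, that fell on the 78 mitochondrial ribosomal protein genes, 1 point per library, with the mean and SD of each group of treatment and day. The fresh and day 7 libraries lie close to 0.25%, and the day 21 libraries lie below them, control (mean 0.152%) under roxadustat (mean 0.1789%).

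Small subunit genes, taken by name and so including Mrps18a, Mrps30 and Mrps36, made up a slightly larger part of the total in fresh cells than at day 7. The summed level of Mrps genes was 0.4842 of that of Mrpl genes in fresh control and 0.48 in fresh treated cells. The ratios were 0.4425 and 0.4391 by day 7 and 0.4626 and 0.4456 by day 21. Fresh libraries (0.469 to 0.491) lay above those of day 7 (0.430 to 0.449). At day 21 control libraries (0.452 to 0.475) lay above roxadustat libraries (0.439 to 0.451). Per kilobase of exon, the median gene stood at 13.7 CPM per kb in fresh control and 13.2 in fresh treated cells, at 10.2 and 9.67 by day 7, and at 7.04 and 6.75 by day 21. Mrpl34, a homolog of a short bacterial large subunit protein, had the highest level per kilobase in 5 of the 6 groups, from 97.0 CPM per kb in fresh control to 39.1 in roxadustat cells at day 21. In control cells at day 21 Mrpl54 stood first, at 41.1 CPM per kb. Mrpl23 was the lowest tested gene in every group, at 0.0534 to 0.156 CPM per kb and 2 to 17 counts a library. Mrpl53 had 0 to 2 counts in any library and was the single gene of the 78 left out by the filter on low counts, so 77 were tested. Of its exon bases 89.87% are shared with other genes, among which Gm42688 overlaps most.

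Overlap with other genes touches some of these values, since the libraries were not stranded and how reads over 2 genes were assigned is not given in the sources used here. Of the 78 genes, 33 (42.3%) shared exon bases with another gene of the count files, against 27% of protein-coding genes, and 10 shared at least 20%. The percent of shared exon bases is a total over all overlapping genes, capped at 100%, and the neighbour named is the one that overlaps most. It was 100% in Mrps34 (neighbour Mapk8ip3), 69.8% in Mrps25 (Nr2c2), 36% in Mrpl19 (Gcfc2) and 30.54% in Mrps18b (Gm16279). In 19 genes (24.4%, against 7% of protein-coding genes) another gene started within 1000 bases on the opposite strand. The genes lay on 17 chromosomes, 11 of them on chromosome 11. The annotated pseudogenes of Mrps36, Mrpl23 and Mrpl48 held at most 7 counts in a library.

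In control cells, 47 of the 77 genes fell and 6 rose between day 0 and day 7, with a median log2 fold change of −0.389 (edgeR quasi-likelihood F test, Benjamini-Hochberg adjusted p under 0.05). Of all 18731 genes tested, 39.5% fell and 37% rose (76.5% together), so the 61% of these genes that fell stood above the background, and the median over all genes was −0.026. The counts depend on the scaling: with library size alone 27 fell and 27 rose (35.1% each, against 30.1% and 48.4% of all genes). The median of these genes was then 0.037 and that of all genes 0.398. Relative to all genes the median was −0.363 with TMM and −0.361 with library size alone, and 27 falls and 6 rises were called under both. Calls under both scalings were not counted over all genes, so such counts, here and below, have no background. In roxadustat cells 50 fell and 3 rose (median −0.425), against a background of 37.6% and 37.1% (74.6% together), and 27 fell and 3 rose under both scalings. Of the falls, 42 (54.5%, against 33.1% of all genes) were called in both arms with TMM and 24 in both arms under both scalings.

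Mrpl12 (ENSMUSG00000039640, chromosome 11, 120484613 to 120489065), whose product forms the stalk of the large subunit and binds the mitochondrial RNA polymerase, had the largest fall in control cells. It stood at 57.4 and 69.8 CPM in fresh control, at 20.3, 14.8, 16.4 and 16.5 CPM at day 7, and at 10.6, 11.2, 9.90 and 11.5 CPM at day 21. No library of a later day reached one of an earlier day. The fall to day 7 was 3.74-fold (log2 fold change −1.90 ± 0.10 SE, edgeR adjusted p = 1.27e-15), and in roxadustat cells it was −1.60 ± 0.11 (adjusted p = 1.5e-13). Mrps6, Mrpl42 and Mrps35, all ribosomal subunit proteins, followed in control with log2 fold changes of −1.47, −1.46 and −1.40. Mrpl12 shares 13.05% of its exon bases with other genes. Gm16755, which overlaps it most, changed by −1.19 in control and by −1.35 in roxadustat cells in the step to day 7. Mrps6 shares 10.37% of its exon bases with other genes. Slc5a3, which overlaps it most, changed by −3.30 in the control step. The part of these neighbours was not tested. In roxadustat cells Mrps36 had the largest fall, at −1.87 ± 0.26 (edgeR adjusted p = 3.94e-07), ahead of Mrpl42 at −1.62. Mrps36 was a low gene: it stood at 4.15 and 2.76 CPM in fresh control, 3.58 and 2.74 CPM in fresh roxadustat cells, and 0.961, 0.944, 0.872 and 0.678 CPM in roxadustat cells at day 7.

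Mrpl33, Mrpl52 and Mrps10 rose from day 0 to day 7 in both arms and under both scalings. Mrpl33 (chromosome 5, 31596935 to 31664384), the homolog of bacterial L33, stood at 36.3 and 26.3 CPM in fresh control and at 54.6, 68.8, 63.1 and 64.0 CPM at day 7 (log2 fold change 1.00 ± 0.10, edgeR adjusted p = 1.06e-09). In roxadustat cells it went from 30.3 and 30.1 CPM to 72.6, 76.4, 65.2 and 68.0 CPM, a change of 1.22 ± 0.10 (edgeR adjusted p = 2.65e-11). Every day 7 library of each arm lay above both fresh ones. Mrpl52, a large subunit protein without a bacterial counterpart, rose by 0.99 ± 0.09 in control and by 0.39 ± 0.09 in roxadustat cells. Mrps10, the homolog of bacterial S10, rose by 0.79 ± 0.09 and 0.57 ± 0.09, from 12.1 and 12.9 CPM in fresh control to between 21.0 and 22.0 CPM. Mrpl23 was also called in control (1.502 ± 0.54, edgeR adjusted p = 0.0136), but on few counts; without fresh control replicate 2 its adjusted p was 0.177.

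From day 7 to day 21 nearly the whole set fell in both arms. In control cells 71 fell and 1 rose (median −0.515), against a background of 34.3% lower and 34.5% higher (68.7% in all). In roxadustat cells 74 fell and none rose, with a median of −0.520 and backgrounds of 32.9% and 28.6% (61.5% in all); at an unadjusted p under 0.05, and by DESeq2, the count of rises was also 0. The falls numbered 70 in both arms with TMM (90.9%, against 19.7% of all genes) and 69 under both scalings. With TMM 36 genes (46.8%) fell at each of the 4 steps, against 4.45% of all genes tested. Under both scalings 20 did so, a count without a background. With control replicates 1 and 2 alone 61 fell in control, and with replicates 3 and 4 alone 72 fell. The values are moderate in size: with a threshold of 1.5-fold added, 30 remained in each arm. Shares over all genes were not computed for a control pair or with this threshold, so these counts have no background. Markers of the cell cycle summed to between 772 and 789 CPM in control and 245 to 262 CPM in roxadustat cells at day 7, and to between 229 and 239 CPM and 171 to 183 CPM at day 21; their part in the fall was not tested.

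**Figure D2:**
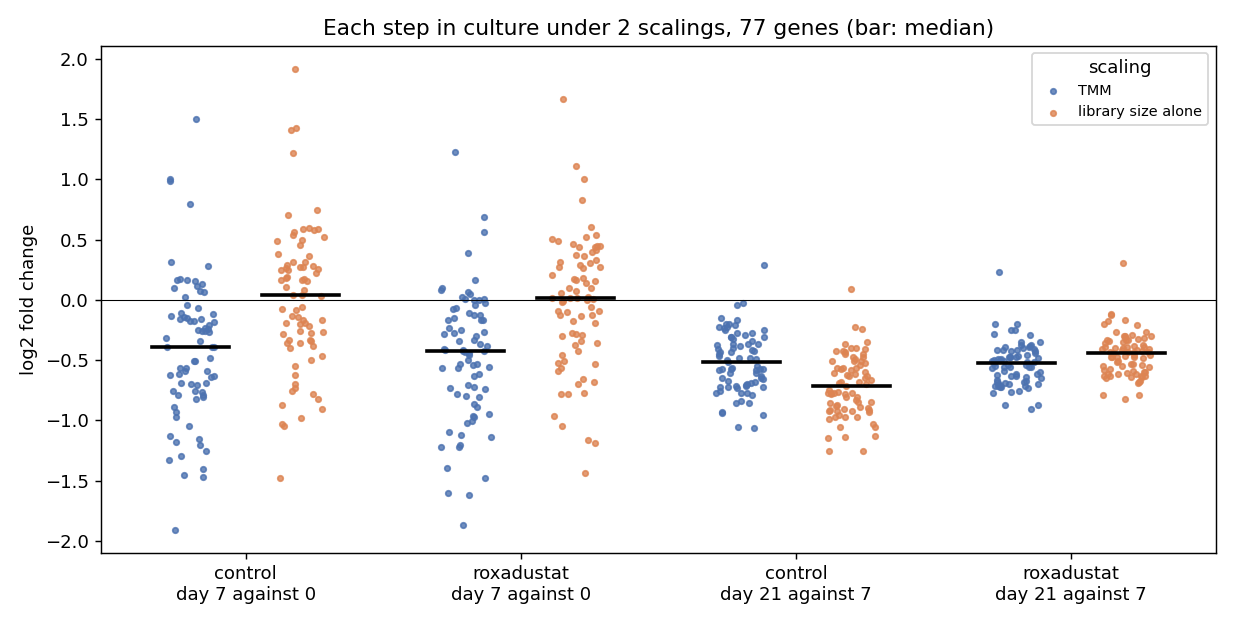
Log2 fold change of each tested gene in the 4 steps of time (control and roxadustat, day 7 against day 0 and day 21 against day 7), 1 point per gene, with TMM (blue) and with library size alone (orange), and the median as a bar. With TMM the control step to day 7 spreads from Mrpl12 at −1.90 to Mrpl23 at 1.502, and its median of −0.389 moves to 0.037 with library size alone, whereas nearly all points of the steps to day 21 lie below 0 under both.

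Mrps22 and Mrpl38 fell most in control from day 7 to day 21. Mrps22, a small subunit protein, went from 31.0, 29.996, 30.7 and 32.0 CPM to 16.5, 16.1, 12.6 and 13.8 CPM (log2 fold change −1.06 ± 0.08, edgeR adjusted p = 9.18e-12). Mrpl38, a large subunit protein with no bacterial counterpart, changed by −1.05 ± 0.06 (adjusted p = 4.73e-14), Mrps36 by −0.95 and Mrpl50 by −0.94. In roxadustat cells the largest falls were those of Mrpl42 (−0.90), Mrpl22 (−0.87), Mrpl32 (−0.87) and Mrps25 (−0.77); Mrpl22 lines the exit tunnel of the ribosome. The exception in control was Mrpl48, with a log2 fold change of 0.29 that passed the test with TMM (edgeR adjusted p = 0.003) and not with library size alone (0.088, adjusted p = 0.354). Mrps18a, at 24.2 to 26.5 CPM at day 7 and 22.6 to 27.5 CPM at day 21 in control, did not pass (−0.04 ± 0.07), nor did Mrps34, Mrps21, Mrpl41 and Mrpl23.

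**Figure D3:**
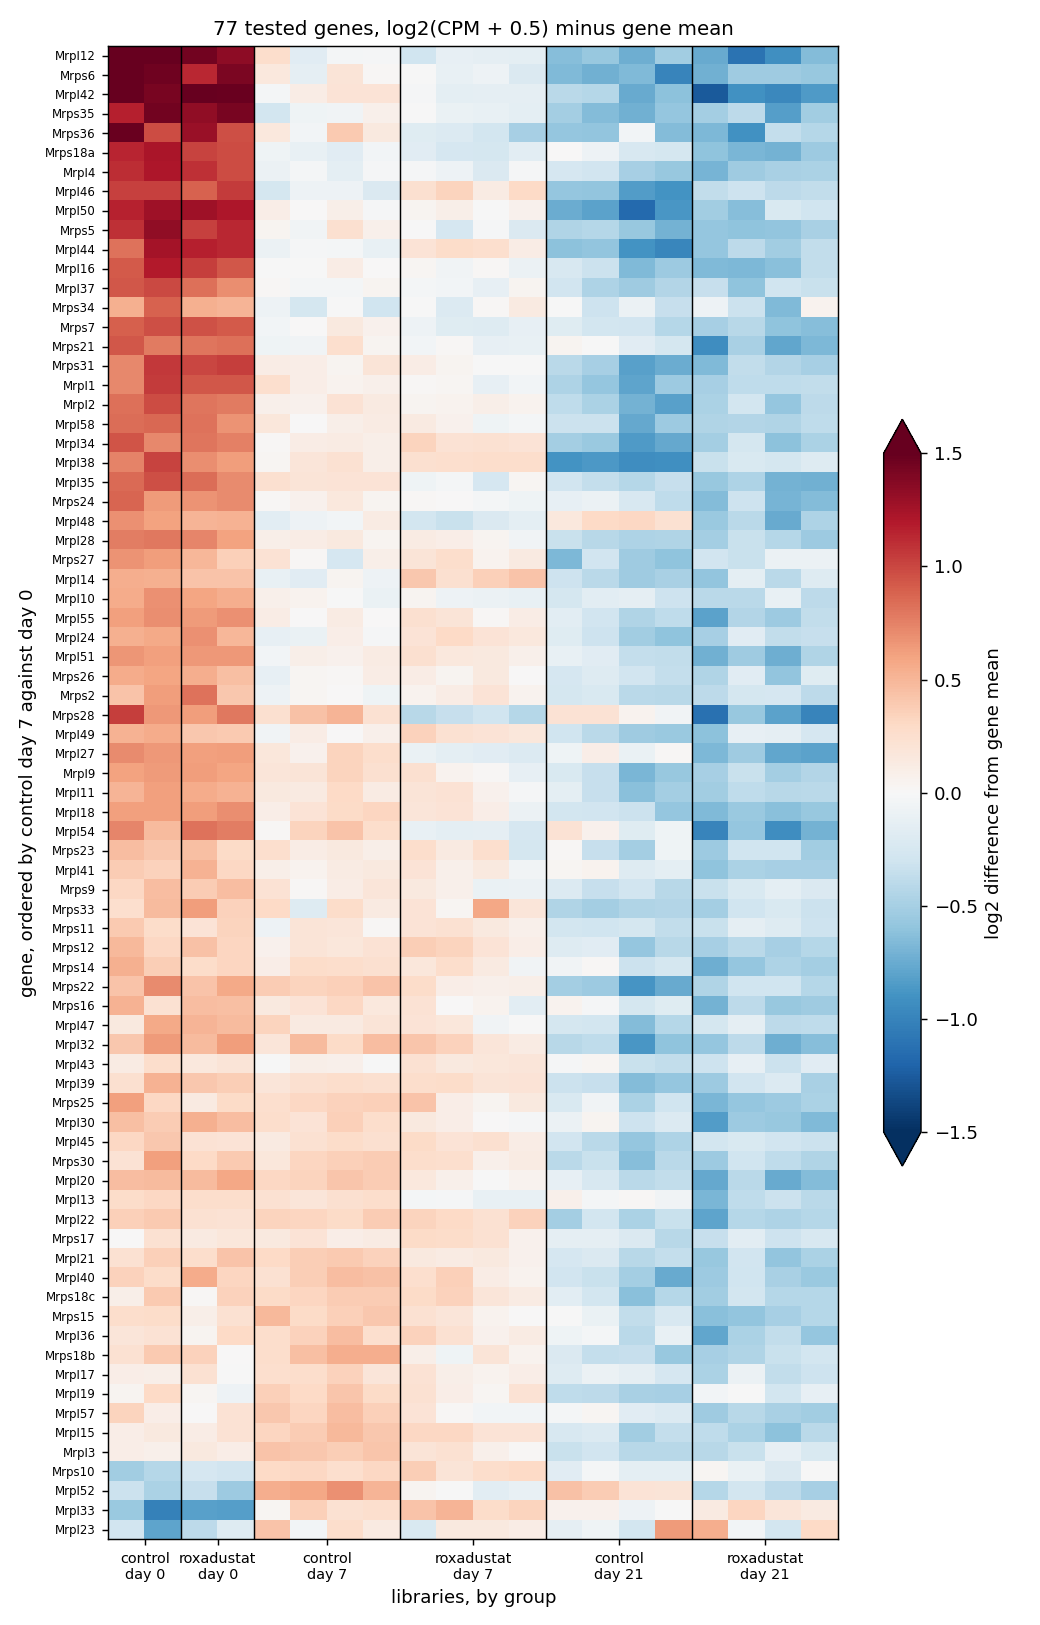
Level of the 77 tested genes (rows) in the 20 libraries (columns, grouped by treatment and day), as log2(CPM + 0.5) minus the mean of the gene over all libraries. Most rows go from high in the fresh libraries to low at day 21, and Mrpl33, Mrpl52, Mrps10 and Mrpl23 are the rows that are lowest in fresh cells.

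Across the 6 groups most genes had their highest mean in fresh cells and their lowest at day 21. In 40 genes the highest mean was in fresh control and in 22 in fresh roxadustat cells; the lowest mean was in roxadustat cells at day 21 in 45 genes and in control cells at day 21 in 28. Each gene was correlated with the mean profile of the set over the 6 group means, a description over 6 points that share libraries and scaling. That mean includes the gene itself. In 56 genes r was over 0.9, and in 4 it was below 0: Mrpl23 (−0.7601), Mrpl33 (−0.7414), Mrps10 (−0.3764) and Mrpl52 (−0.2892). Shares over all genes were not computed for r or for the place of the highest and lowest mean, so these counts have no background. Outside the set, the 5 of 11280 genes with the profile most like the mean profile of the set were Dhrs7b (0.999), Zmpste24 (0.9972), Atpif1 (0.9967), Smim26 (0.9966) and Minos1 (0.9955). Atpif1 encodes the inhibitor of mitochondrial ATP synthase and Minos1 a protein of the mitochondrial inner membrane cristae.

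In fresh cells roxadustat was accompanied by 1 call in the 77 genes, and it was a fall. The background was 2.73% higher and 4.11% lower (6.83% in either direction), and the median log2 fold change was −0.056. At an unadjusted p under 0.05, 6 were lower and none higher, and DESeq2 also called 1 lower and none higher. The gene was Mrpl12, at 57.4 and 69.8 CPM in control and 46.4 and 43.2 CPM in roxadustat cells. Both treated libraries lay below both control libraries, and the change was −0.50 ± 0.12 (edgeR adjusted p = 0.00901). It rests on the control libraries: without control replicate 2 it was −0.36 with an adjusted p of 0.119, and in a fit of the fresh libraries alone −0.49 with an adjusted p of 0.189. Beside it, fibroblast markers summed to between 263 and 446 CPM in control and 1480 to 2480 CPM in treated cells, macrophage markers summed to between 108 and 124 CPM in control and 219 to 264 CPM in treated cells, and loop and distal tubule markers to between 15600 and 20300 CPM and 12400 to 14400 CPM; their part was not tested. With 2 libraries a group, differences within the spread of the fresh libraries were not detectable. Gm16755, the gene that overlaps Mrpl12 most, differed by −0.45 in fresh cells (edgeR adjusted p = 0.631), and its part was not tested.

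At day 7 roxadustat cells had 20 genes lower and 5 higher than control (median −0.090). Of all genes tested, 23.6% were lower and 24.1% higher (47.7% together), so the 26% of these genes that were lower is close to the background, and the 6.49% that were higher lies below it. A fit of the day 7 libraries alone called 30 (39%) lower and 8 (10.4%) higher, and 32.7% and 30.5% of all genes. With library size alone 12 (15.6%) were lower and 10 (13%) higher, against 19.5% and 28.6% of all genes. Under both scalings 12 falls and 5 rises were called. The largest falls were those of Mrps28, Mrps36, Mrpl52, Mrpl54, Mrps18b and Mrpl27, and the rises were those of Mrpl14, Mrpl46, Mrpl44, Mrpl24 and Mrpl49. Macrophage markers summed to between 348 and 356 CPM in control and 17.1 to 19.0 CPM in roxadustat cells at this day, and fibroblast markers to between 10500 and 11100 CPM and 6540 to 7600 CPM; their part in these differences was not tested.

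Mrps28 (ENSMUSG00000040269, chromosome 3, 8802146 to 8923918), a small subunit protein, held 15.7, 17.953, 18.9 and 15.5 CPM in control and 9.70, 10.3, 10.6 and 9.63 CPM in roxadustat cells at day 7. The groups did not overlap, and the level was 1.69-fold lower (−0.76 ± 0.11, edgeR adjusted p = 8.75e-07). Mrpl52 (chromosome 14, 54426909 to 54429756) held 50.7, 51.8, 55.8 and 49.5 CPM in control and 35.7, 34.4, 30.9 and 31.9 CPM in roxadustat cells. It was 1.56-fold lower, with no overlap (−0.65 ± 0.07, edgeR adjusted p = 1.19e-08). Mrpl54, a large subunit protein added in mitochondria, stood at 33.97, 42.3, 45.1 and 40.3 CPM in control and 31.0, 30.1, 30.4 and 28.0 CPM in roxadustat cells (−0.44 ± 0.09, edgeR adjusted p = 0.000291). Control replicate 1 was the lowest of its group and still above every treated library. Mrpl27, the homolog of bacterial L27 near the catalytic centre, changed by −0.38 ± 0.08 (edgeR adjusted p = 0.000185). It shares 7.61% of its exon bases with other genes, and Eme1, which overlaps it most, changed by −1.40. Mrps18b changed by −0.40 ± 0.09 (adjusted p = 0.000805). Mrps36 changed by −0.67 ± 0.24 (edgeR adjusted p = 0.0257), from 1.12 to 1.68 CPM in control to 0.678 to 0.961 CPM; without control replicate 3 its adjusted p was 0.0978.

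Each of the 5 genes that were higher at day 7 is a large subunit gene and shares exon bases with a neighbour. Mrpl14 (chromosome 17, 45686322 to 45698495), the homolog of bacterial L14 at the face between the subunits, stood at 19.3, 18.5, 21.4 and 19.8 CPM in control and 27.8, 24.7, 26.9 and 28.2 CPM in roxadustat cells. It was 1.36-fold higher without overlap (0.45 ± 0.08, edgeR adjusted p = 3.57e-05). It shares 11.17% of its exon bases with other genes, and Tmem63b, which overlaps it most, was higher by 0.56. Mrpl46 (chromosome 7, 78775236 to 78783531), a large subunit protein, stood at 13.4, 15.2, 15.3 and 13.8 CPM in control and 19.2, 20.5, 17.7 and 20.0 CPM in roxadustat cells. It was 1.34-fold higher without overlap (0.42 ± 0.08, edgeR adjusted p = 4.76e-05). It shares 12.23% of its exon bases with other genes, and Mrps11, which overlaps it most, differed by 0.08 (edgeR adjusted p = 0.379). Mrpl44, a large subunit protein with an RNase III fold, changed by 0.28 ± 0.09 (edgeR adjusted p = 0.00847), while its partner Wdfy1 changed by −0.72. Mrpl24 changed by 0.25 ± 0.08 (edgeR adjusted p = 0.0101) beside its partner Rrnad1 at 0.25. Mrpl49 was the least firm, at 0.20 ± 0.08 (edgeR adjusted p = 0.0364), and lost the call with DESeq2 (adjusted p = 0.105). The part of the neighbours in these rises was not tested. Among the 45 genes that share no exon base, 12 were lower and none was higher at day 7 (edgeR), against 23.6% and 24.1% of all genes. Among the 32 tested genes that share some, 8 were lower and 5 higher. At day 21 the 45 had 15 lower and 5 higher and the 32 had 9 lower and 5 higher, against 32.9% and 30% of all genes.

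At day 21 roxadustat cells had 24 genes lower and 10 higher than control with TMM (median −0.045), against a background of 32.9% lower and 30% higher (62.9% together). With this scaling the 31.2% of these genes that were lower is near the background and the 13% that were higher lies below it. The split turned with the scaling: with library size alone 7 were lower and 47 higher, and the median of all genes moved from 0.00 to 0.338. Relative to all genes, the median of the 77 was −0.045 with TMM and −0.034 with library size alone. Calls under both scalings numbered 7 lower (Mrps28, Mrpl54, Mrpl48, Mrpl52, Mrpl27, Mrps21 and Mrpl30) and 10 higher. With library size alone 61% of the set and 50% of all genes were higher, and 9.09% and 18.9% were lower. The split also differed between the control pairs. With replicates 1 and 2 alone 30 were lower and 4 higher, and with replicates 3 and 4 alone 21 were lower and 16 higher. Shares over all genes were not computed for a pair, so these counts have no background. Fibroblast markers summed to between 47300 and 50500 CPM in control and 2520 to 3760 CPM in roxadustat cells at this day, macrophage markers to between 300 and 352 CPM and 17.2 to 19.3 CPM, and general epithelial markers to between 17.6 and 22.8 CPM and 457 to 503 CPM; their part was not tested.

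Mrps28 again had the largest fall, at 15.4, 15.4, 13.7 and 12.7 CPM in control and 5.78, 8.72, 7.36 and 6.39 CPM in roxadustat cells at day 21. It was 2.03-fold lower, without overlap (−1.02 ± 0.12, edgeR adjusted p = 1.68e-08). Mrpl54 (chromosome 10, 81264713 to 81266934) stood at 39.1, 35.1, 29.4 and 32.0 CPM in control and 16.6, 22.1, 17.3 and 20.3 CPM in roxadustat cells, 1.77-fold lower (−0.82 ± 0.10, edgeR adjusted p = 6.77e-08). Mrpl48, a large subunit protein, stood at 15.7, 17.4, 17.6 and 16.6 CPM in control and 9.46, 10.5, 8.15 and 10.1 CPM in roxadustat cells, 1.74-fold lower (−0.80 ± 0.09, edgeR adjusted p = 5.06e-09). Neither pair of groups overlapped. Mrpl52 stood at 47.1, 45.4, 39.8 and 39.6 CPM and 25.7, 28.4, 26.2 and 24.3 CPM, 1.65-fold lower (−0.72 ± 0.07, edgeR adjusted p = 1.82e-09). Mrpl27 (chromosome 11, 94653767 to 94660089) stood at 13.7, 15.3, 13.3 and 14.5 CPM and 8.78, 9.71, 8.15 and 8.01 CPM, 1.64-fold lower (−0.71 ± 0.09, edgeR adjusted p = 3.63e-08). Mrps21, the homolog of bacterial S21, stood at 18.8 to 23.3 CPM in control and 11.7 to 16.1 CPM in roxadustat cells (−0.62 ± 0.09, edgeR adjusted p = 1.75e-06). In all 3 the control libraries lay above the roxadustat libraries.

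The largest rises at day 21 were those of Mrpl38, Mrpl50, Mrpl46, Mrpl19, Mrps27 and Mrpl44. Mrpl38 (chromosome 11, 116131817 to 116138868) stood at 21.2, 21.8, 20.8 and 20.9 CPM in control and 31.8, 34.3, 33.2 and 35.1 CPM in roxadustat cells. It was 1.59-fold higher (0.67 ± 0.07, edgeR adjusted p = 8.06e-10), and the libraries of each group lay close together and far from the other group. Mrpl50 (chromosome 4, 49512596 to 49521093), a large subunit protein added in mitochondria, stood at 22.8, 22.0, 17.0 and 21.0 CPM in control and 26.9, 24.8, 33.0 and 31.4 CPM in roxadustat cells. It was 1.39-fold higher without overlap (0.47 ± 0.08, edgeR adjusted p = 1.94e-05). Mrpl46 stood at 10.6, 10.6, 8.78 and 8.43 CPM in control and 12.4, 12.9, 12.1 and 12.3 CPM in roxadustat cells (0.37 ± 0.09, edgeR adjusted p = 0.000697), again with every treated library above control. Mrpl19, the homolog of bacterial L19, changed by 0.34 ± 0.08 (edgeR adjusted p = 0.000388), beside Gcfc2, with which it shares exon bases, at 0.26. Mrps27 changed by 0.34 ± 0.11 (adjusted p = 0.0107) with overlapping libraries. Mrpl44 changed by 0.31 ± 0.10 (adjusted p = 0.00774). Mrpl38 and Mrpl50 share no exon base with another gene.

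**Figure D4:**
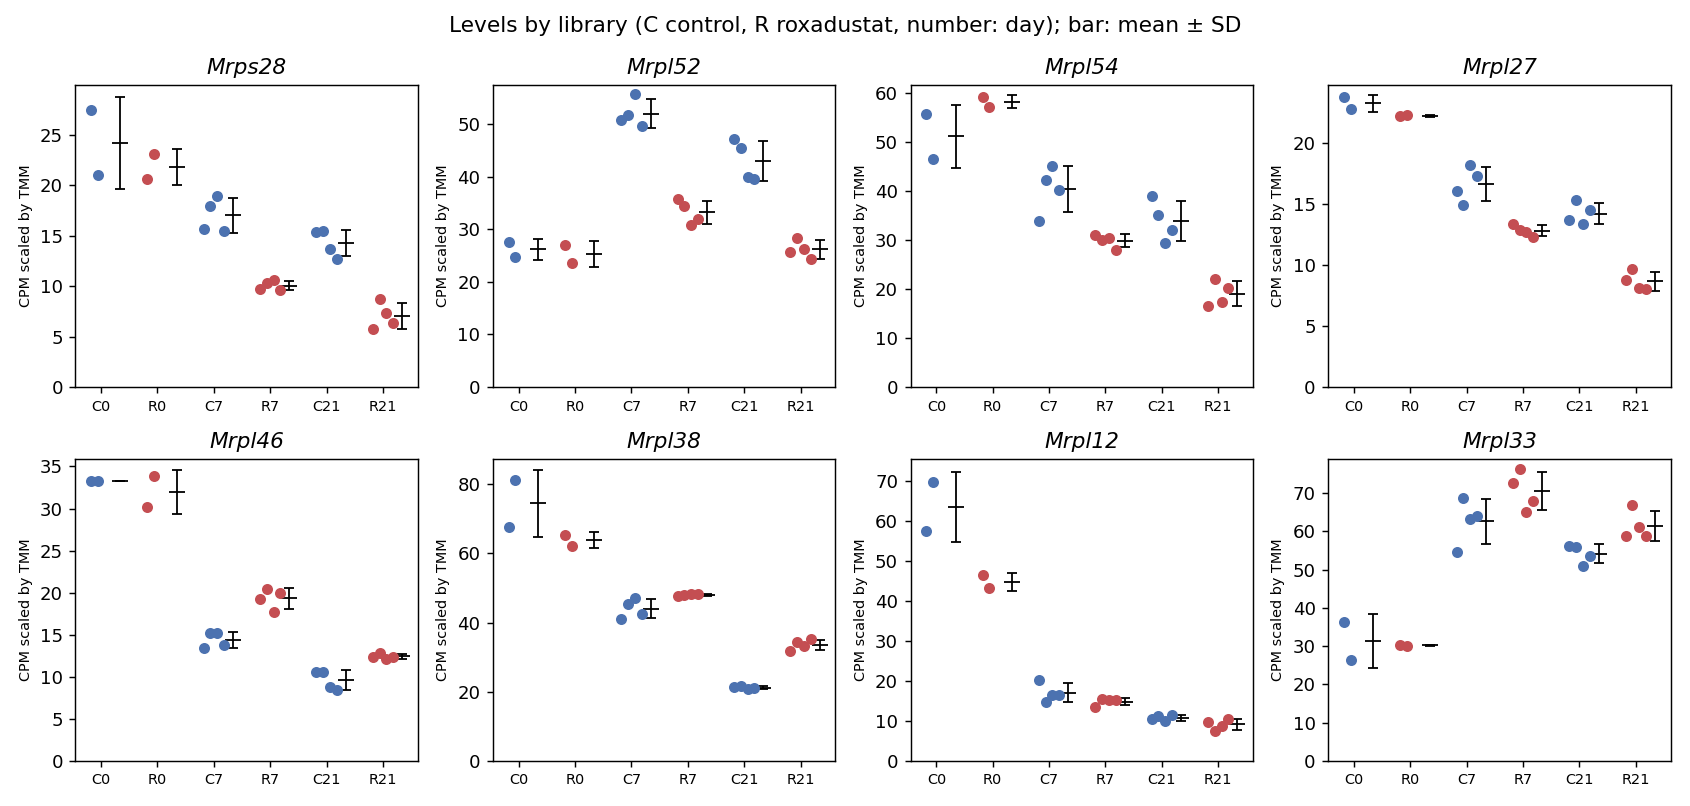
Level of 8 named genes in CPM scaled by TMM, 1 point per library (blue control, C; red roxadustat, R; the number is the day), with the mean ± SD of each group beside the points. Mrps28 and Mrpl52 lie lower in roxadustat than in control libraries at both culture days, and Mrpl38 lies higher at day 21, without overlap.

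At both culture days 13 genes (16.9%) were lower in roxadustat cells with TMM, against 15.7% of all genes tested, a share near the background. Higher at both days were 2 (2.6%, Mrpl44 and Mrpl46), against 15.7% of all genes, and 35 (45.5%, against 26.5%) were called at neither day. Under both scalings 4 were lower at both days, Mrps28, Mrpl52, Mrpl54 and Mrpl27, and the same 2 were higher. With TMM, Mrpl19 and Mrps22 were lower at day 7 and higher at day 21, as were 2.48% of all genes, and no gene of the set went the other way (3.16% of all genes). With library size alone both kept the call at day 21 but not at day 7, where Mrpl19 was at −0.13 (edgeR adjusted p = 0.127) and Mrps22 at −0.17 (adjusted p = 0.0711). Mrps22 stood at 31.0, 29.996, 30.7 and 32.0 CPM in control and 28.8, 25.4, 25.1 and 25.3 CPM in roxadustat cells at day 7, and at 16.5, 16.1, 12.6 and 13.8 CPM and 17.2, 19.2, 19.2 and 17.6 CPM at day 21. The treated libraries lay below control at day 7 and above it at day 21. These 2 days share no libraries.

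**Figure D5:**
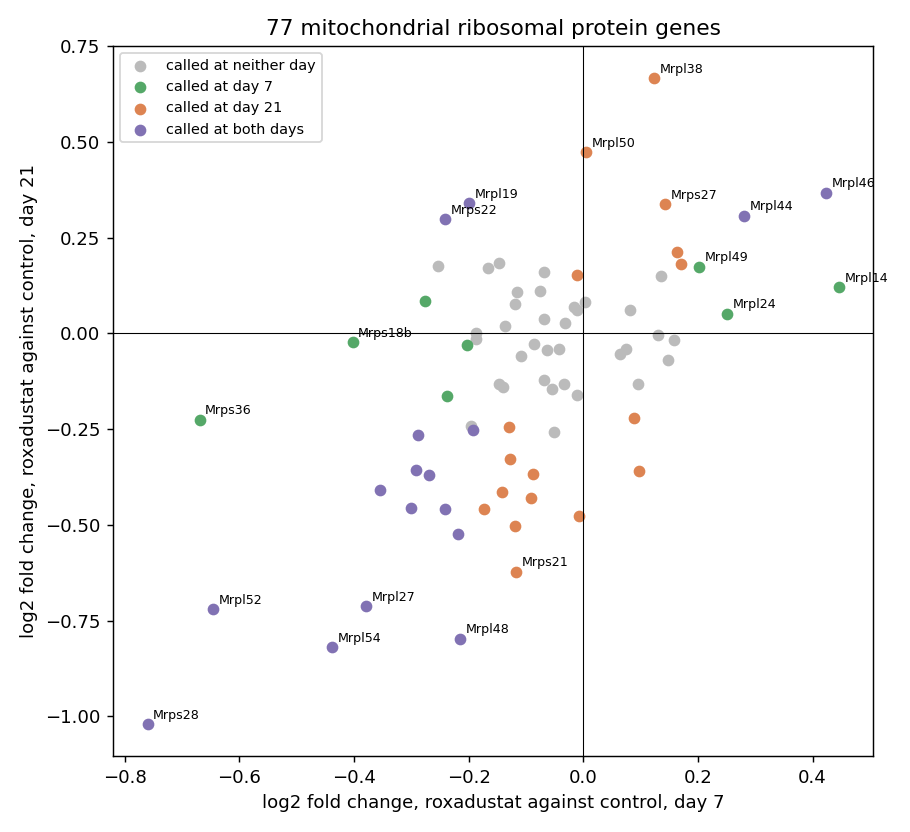
Log2 fold change of roxadustat against control at day 7 (horizontal) and day 21 (vertical) for the 77 tested genes with TMM scaling, coloured by the days at which the gene was called. Mrps28 (−0.76 and −1.02) is at the lower left and Mrpl46 (0.42 and 0.37) at the upper right, and most genes lie within 0.5 of 0 on both axes.

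The change of the roxadustat difference between days was tested as an interaction. Between day 0 and day 7, 3 genes had a more positive and 5 a more negative difference, against a background of 15.5% and 13.4% (28.9% in all). They included Mrpl52 (−0.60 ± 0.13, edgeR adjusted p = 0.000732), Mrpl54 (−0.62 ± 0.16, adjusted p = 0.00345), Mrpl14 (0.56 ± 0.14, adjusted p = 0.0026) and Mrpl46 (0.48 ± 0.13, adjusted p = 0.00525); without fresh roxadustat replicate 1 the value of Mrpl46 was 0.40 with an adjusted p of 0.0544. Fresh Mrpl52 stood at 27.6 and 24.8 CPM in control and 27.1 and 23.6 CPM in roxadustat cells, and Mrpl54 at 55.8 and 46.7 CPM and 59.2 and 57.3 CPM. Between day 7 and day 21, 8 were more positive and 11 more negative, against 20.9% and 23.8% (44.7% in all). With library size alone 32 (41.6%) were more positive and 1 (1.3%) more negative, against 34.7% and 13.4% of all genes. Mrpl38 (0.54 ± 0.09, edgeR adjusted p = 1.04e-05), Mrpl19 (0.54 ± 0.10, adjusted p = 0.000103), Mrps22 (0.54 ± 0.12, adjusted p = 0.000354) and Mrpl48 (−0.58 ± 0.12, adjusted p = 0.000203) had the smallest p.

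By role, the lower genes came from both subunits, in each at a rate near that of all genes. Of all genes tested, 23.6% were lower and 24.1% higher at day 7, and 32.9% lower and 30% higher at day 21. Of the 48 tested Mrpl genes 13 were lower and 5 higher at day 7, and 15 lower and 8 higher at day 21. Of the 29 Mrps genes 7 were lower and none higher at day 7 (edgeR), and 9 lower and 2 higher at day 21. Among the 45 with a bacterial homolog, 12 were lower and 2 higher at day 7 and 14 lower and 3 higher at day 21. Among the 28 tested genes listed as specific to mitochondria, 6 were lower and 3 higher, then 8 lower and 7 higher. Mrpl55, Mrpl58, Mrps28 and Mrps36 were in neither list. The lower calls of Mrps28 (both culture days), Mrps36 (day 7) and Mrpl55 (day 21) are thus outside these counts. In the step to day 7 in control, 26 of the 45 and 17 of the 28 fell, against 39.5% of all genes. In the control step to day 21, 42 and 25 fell, against 34.3% of all genes.

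Single genes of known role did not all move. Mrpl58, a peptidyl-tRNA hydrolase built into the large subunit that frees stalled ribosomes, differed by −0.10, −0.07 and 0.04 between roxadustat and control at days 0, 7 and 21, none past the test, and fell by 0.77 ± 0.09 from day 0 to day 7 in control (edgeR adjusted p = 1.4e-08). Mrps30 stood at 24.6 to 28.5 CPM in control at day 7 and 13.7 to 17.2 CPM at day 21 (−0.77 ± 0.09, edgeR adjusted p = 1.31e-08), and its treatment differences of −0.08, −0.14 and 0.02 did not pass. The 3 genes of the S18 family took different courses: Mrps18a fell by 1.29 ± 0.07 from day 0 to day 7 in control (edgeR adjusted p = 4.08e-15), whereas Mrps18b (0.16 ± 0.12) and Mrps18c (0.10 ± 0.12) did not pass there. Mrps18b and Mrps18c fell from day 7 to day 21, by 0.86 and 0.72, where Mrps18a did not pass. Mrpl55 differed by 0.00 at day 0 and by −0.22 ± 0.10 at day 21 (edgeR adjusted p = 0.0471), a call whose direction turned with library size alone.

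The other genes of the pathway were counted with TMM scaling from lists of the same role, beside 24.1% of all genes higher and 23.6% lower at day 7, and 30% and 32.9% at day 21. Of 13 translation factors of mitochondria, 2 rose and 1 fell with roxadustat at day 7, and 3 rose and 1 fell at day 21; 12 fell from day 0 to day 7 in each arm, a step in which 39.5% of all genes fell in control and 37.6% in roxadustat cells. Of 22 assembly factors, 4 were higher and 4 lower at day 7, and 8 higher and 1 lower at day 21, and of 17 mitochondrial aminoacyl-tRNA synthetases, 5 higher and 4 lower, then 8 higher and 2 lower. Of 5 ribosomal proteins with other symbols, Chchd1 was lower at day 7 (−0.31) and Ptcd3 higher at day 21 (0.26). Of 15 genes for the upkeep and transcription of mitochondrial DNA, 2 were higher and 5 lower at day 7, and 4 higher and 3 lower at day 21.

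The RNAs read by and built into the mitochondrial ribosome were lower in roxadustat cells with TMM, beside medians over all genes of 0.029 at day 7 and 0.00 at day 21. Of all genes, 23.6% were lower and 24.1% higher at day 7, and 32.9% lower and 30% higher at day 21. With library size alone the medians of all genes were 0.095 and 0.338, and the lists here were not counted with that scaling. Of the 13 mitochondrially encoded mRNAs, 5 (mt-Atp6, mt-Atp8, mt-Co2, mt-Co3 and mt-Nd4l) are listed at 0 in every library and mt-Nd3 at 0 or 1 count, beside at least 15877 counts for mt-Co1, so these 6 say nothing about expression. Of the 7 tested, 6 were lower at day 7 and all 7 at day 21, with medians of −0.958 and −1.031, and mt-Co1, the catalytic subunit of cytochrome oxidase, changed by −1.16 and −1.30. The 12S and 16S rRNAs, mt-Rnr1 and mt-Rnr2, changed by −1.42 and −1.48 at day 7 and by −1.51 and −1.64 at day 21. Cytosolic ribosomal protein genes were lower in 62 of 77 at day 7 and in 55 of 77 at day 21, with medians of −0.553 and −0.769. Of 12 regulators of mitochondrial biogenesis and of Myc activity, 4 were higher and 7 lower at day 7 (median −0.141), and 5 higher and 4 lower at day 21 (median 0.0748). Among them Mxi1, a repressor of Myc targets induced by hypoxia, changed by 1.39 at day 7 and 1.89 at day 21, Ppargc1a, a coactivator of mitochondrial genes, by 0.46 and 2.16, and Gabpa, the DNA-binding subunit of NRF-2, by −0.14 and −0.25. A check list of 8 hypoxia-inducible factor targets was higher in 6 of 8 at day 0, against 2.73% of all genes. At each culture day it was higher in 8 of 8.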

How the data were processed

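Gene-level read counts of 20 libraries were analysed. Each deposited table lists unnormalized counts by Ensembl gene, made with bcl2fastq, STAR 2.5.2a and featureCounts 1.5.0-p1 on mm10, per the submitters' processing notes, from non-stranded libraries, per the labels' protocols. The annotation release and the counting of overlapping genes are not given in the sources used here. Of 47729 genes, 47224 matched GENCODE M21. Total counts were 8502011 to 19903160 per library, which limits precision for genes such as Mrpl23 (2 to 17 counts).

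Counts were fitted in R 4.3.3 with edgeR 4.0.16 in 1 model of 6 groups (filterByExpr, 18731 genes; TMM; robust quasi-likelihood F test; Benjamini-Hochberg adjusted p under 0.05 over all genes). The procedure was tested on simulated data. Levels are CPM scaled by TMM, as mean ± SD. Log2 fold changes carry an SE, which is their size divided by the square root of F. Alternatives were other scalings and filters, DESeq2 1.42.0, a replicate block, only the groups compared and leaving out each library. The control pairs at day 21 and genes without shared exon bases were added after seeing the data.

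The genes, lists and tests were chosen with earlier results of these data known. Named genes are the 6 largest rises and falls called per treatment comparison, the 4 largest per time step, the 4 smallest p per interaction, genes of special role (Mrpl12, Mrpl58, Mrps36, Mrps30, Mrps18a, Mrps18b, Mrps18c, Mrpl55 and Mrps28), low genes, and extremes per length; other genes were named after their values were seen.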

Additional observations from a re-analysis of the deposited data

Results flagged for a closer look

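In 132 groups of 4 libraries, those of the 33 genes screened, 7 had 1 library far from the others, by a rule that chance meets in about 1 of 20 groups. Replicate 1 of roxadustat cells at day 7 accounted for 4 of them: it was lowest for Mrpl12 (13.5 CPM, against 15.15 to 15.39 CPM in the other libraries) and Mrpl23 (0.4322 CPM, against 0.6784 to 0.7088), and highest for Mrpl42 (24.3 CPM, against 22.09 to 22.43) and Mrps22 (28.82 CPM, against 25.14 to 25.44). Replicate 3 of control cells at day 21 was highest for Mrps36, at 1.118 CPM against 0.562 to 0.6141 CPM. Replicate 1 of roxadustat cells at day 21 was lowest for Mrpl22, at 4.831 CPM against 6.164 to 6.343 CPM. Replicate 4 of the same group was highest for Mrpl58, at 17.8 CPM against 16.9 to 17.04 CPM.

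The roxadustat difference changed between day 0 and day 7 by an interaction test in Mrpl52 (−0.5997), Mrpl54 (−0.6234), Mrpl14 (0.5609) and Mrpl46 (0.4815), all on the log2 scale. Between day 7 and day 21 it changed in Mrpl38 (0.5421), Mrpl19 (0.5386), Mrps22 (0.5385) and Mrpl48 (−0.5819).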

How the results depend on the processing

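Scaling mattered most. With library size alone, calls of roxadustat against control at day 21 numbered 54 (47 higher, 7 lower) in place of 34, those at day 7 were 10 higher and 12 lower, and the interaction of day 21 and day 7 had 33 (32 positive, 1 negative) in place of 19; the step to day 7 gave 27 higher and 27 lower in control and 26 and 27 in roxadustat cells. Of all genes, 50% were then higher and 18.9% lower at day 21, and 28.6% and 19.5% at day 7. In the steps to day 7, 48.4% were higher and 30.1% lower in control, and 50.6% and 27.8% in roxadustat cells. The interaction of day 21 and day 7 had 34.7% positive and 13.4% negative. The median of all genes moved to 0.338, 0.398 and 0.461 in the day 21 comparison and the 2 steps to day 7. It moved to −0.192 in the control step to day 21 and to 0.255 in that interaction. At day 21 library size alone turned the direction of Mrpl12 (0.1052), Mrps36 (0.1169), Mrps18b (0.3235), Mrps18c (0.2888) and Mrpl55 (0.1282). With DESeq2's size factors the same interaction split 11 to 7, with DESeq2 itself 11 to 6, and the interaction of day 7 and day 0 split 3 to 9, or 4 to 4 without a filter. Fits of only the groups compared gave 0 calls at day 0 and 38 at day 7 (8 higher, 30 lower). A required fold of 1.5 left 0, 3 and 7 treatment calls at days 0, 7 and 21, 30 and 30 in the steps to day 21, 28 in the roxadustat step to day 7, and 3 and 0 in the interactions. Among genes without shared exon bases the day 0 count was 0.

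Leaving out 1 library at a time gave 0 to 2 calls at day 0, 20 to 28 at day 7, 31 to 37 at day 21, 49 to 53 and 48 to 53 in the steps to day 7 (control, roxadustat), 67 to 73 and 73 to 74 in the steps to day 21, and 4 to 9 and 15 to 24 in the interactions. Control replicates 1 and 2 of day 21 gave 5 positive and 19 negative interactions of day 21 and day 7. Replicates 3 and 4 gave 14 and 5. Shares over all genes were not computed for the control pairs, the libraries left out or the required fold, so those counts have no background. Mrpl55 at day 0 (0.00) took the values −0.002363 with DESeq2's size factors, −0.002517 with DESeq2, −0.02308 without a filter and −0.04813 without control replicate 1; at day 21 Mrps30 was −0.007358 without a filter, and Mrps18b 0.003054 with at least 1 CPM and 0.02314 with only the groups compared. The replicate block gave 1, 26, 32, 51, 72, 50, 74, 8 and 19 calls. Their order is that of the comparisons (treatment at 3 days, control steps, roxadustat steps, interactions). Within a day, deviations of control and roxadustat libraries with the same number had r from −0.275 to 0.07, and those with other numbers from −0.206 to 0.241. Libraries of different days were not compared, and these values cannot decide whether a number marks a shared animal or isolation. As a share of nuclear protein-coding counts, the genes took 0.3129%, 0.306%, 0.269%, 0.2632%, 0.1674% and 0.1954% (control and roxadustat at days 0, 7 and 21). The cause of these changes was not tested.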
